A study of Homo sapiens with 24 samples.

Results

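The S51A line of HAP1 cells was compared with its parental line (PAR) over every treatment of the series, to describe the transcripts whose level differed between the lines whatever the treatment. The comparison holds 10 arrays of the 24 in the series, 5 of S51A and 5 of PAR. They were chosen by their labels: every array of the lines S51A and PAR entered. HAP1 is a near-haploid human cell line derived from KBM-7, a line from a chronic myelogenous leukemia. S51A is named for a change in eIF2-alpha, the product of EIF2S1, that replaces the serine phosphorylated under stress with alanine. PAR is the unedited parent. Each line has 2 arrays (lettered A and B) without drug, 2 (A and B) with lomustine at 200 µM for 2 h, and 1 with SA100, as the titles call it, for 2 h. Lomustine is an alkylating and crosslinking drug. The treatment text gives sodium arsenite at 100 µM, whereas the agent field of the SA100 arrays names lomustine. These arrays were grouped by title and are called SA100 here. The other 14 arrays are of 4 lines, each named for a kinase of eIF2-alpha (PERK, PKR, GCN2 or HRI) and given the same treatments, and serve here only for reference.

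All lines were bought from the same supplier, and the labels give 1 line per genotype. They do not say whether S51A stands for more than 1 clone, so a difference between the lines that comes from the edit cannot be told apart from a difference between clones. Nor do they say whether A and B are separate cultures, so the p-values measure the spread between arrays, which may be technical.

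Phosphorylation of eIF2-alpha by its kinases lowers general translation and favours translation of a few mRNAs, among them that of the transcription factor ATF4. ATF4 and its partner CHOP then raise the transcripts of genes for amino acid supply, redox balance and feedback, which together make up the integrated stress response. Alanine has no hydroxyl group, so the factor cannot be phosphorylated at the changed position.

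Values are log2 signals of Affymetrix probe sets, and a difference is S51A minus PAR on that scale unless another is named. Where 5 values of a line are given, their order is no drug A, no drug B, lomustine A, lomustine B and SA100. Signals of different probe sets are not compared with each other. The median of all values, 2.42, served as a floor: a mean below it was not told from background, and a difference from such a mean is a lower bound in size. A gene was called when limma's p, adjusted over the 17508 genes tested, was below 0.05.

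1 array stood apart from the rest. In S51A lomustine B, 8.37% of probe sets lay more than 1 log2 unit from their median over the arrays, against 0.739% to 3.16% in the other 23 arrays. Its range was narrow, with a 90th percentile of 5.29 against 5.88 to 6.04 in the other S51A arrays. PAR lomustine A leaned the same way, with a 90th percentile of 5.58. On the principal components of the 10 arrays, the first (46.1% of the variance) ran from the bulk of the arrays to these 2, at 75.1 and 38.2. The second component (19%) separated the lines: S51A arrays lay between -23.5 and -13.7, and PAR arrays between 9.7 and 28.2.

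**Figure D1:**
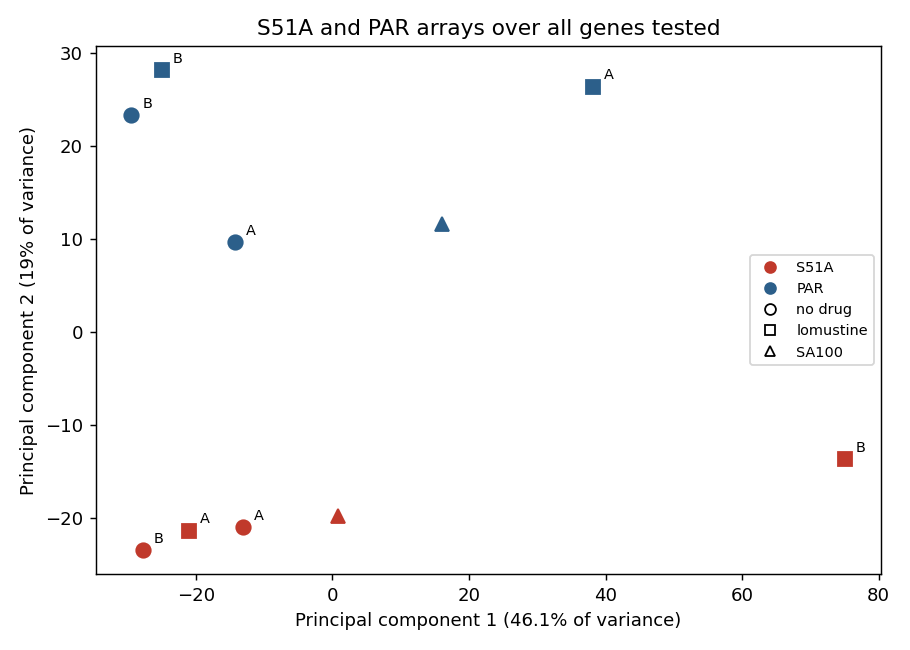
Principal components 1 and 2 of the 5 S51A arrays (red) and the 5 PAR arrays (blue) over all genes tested, with circles for no drug, squares for lomustine, triangles for SA100 and letters for repetitions; each axis gives its share of the variance. The lines separate on the vertical axis, and S51A lomustine B lies farthest to the right at 75.1.

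The labelled origin was set against markers. HAP1 cells are adherent although they come from a leukemia line. Of the 16 blood cell markers tested 0 were called, and the leukocyte surface phosphatase PTPRC was below the floor in both lines, with a mean of 1.71 in S51A and 1.72 in PAR. The progenitor marker CD34 was also below it, at 2.27 in S51A and 2.41 in PAR, as was the granulocyte enzyme MPO at 2.30 in S51A and 2.31 in PAR. Other blood markers were above it in both lines. The transcription factor LYL1 was 4.45 in S51A and 4.48 in PAR, GATA1 3.73 and 3.68, LMO2 3.57 and 3.49, and SPI1 2.53 and 2.48. TAL1 was below it in S51A at 2.40 and above it in PAR at 2.57. The blood markers named singly were picked by hand. Of the 19 blood markers on the array, 9 had a mean below the floor in S51A and 6 in PAR. Summed over the 19 blood markers on the array, the log2 signals ran from 49.8 to 54.6 in S51A and from 50.1 to 55.1 in PAR. Sums over the 14 pluripotent cell markers were 59.2 to 64.7 in S51A and 54.2 to 57.9 in PAR, with 0 of the 10 tested called. The epithelial adhesion gene EPCAM was 4.16, 6.66, 6.35, 3.92 and 4.02 in S51A and 2.78, 2.66, 2.99, 2.94 and 3.01 in PAR, so the lines did not overlap. Its difference of 2.15 did not pass (SE 0.548, adjusted p = 0.17), but did without S51A lomustine B (2.52, adjusted p = 0.044). None of the other 14 epithelial markers was called in either setting.

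Genes of the edited pathway were not called. EIF2S1 itself was 6.63, 6.53, 6.44, 5.90 and 6.38 in S51A and 6.80, 6.47, 6.13, 6.42 and 6.26 in PAR. The lines overlapped (difference -0.04, SE 0.142, adjusted p = 1). A probe set does not read a single changed codon, so this value does not check the genotype. ATF4 differed by -0.17 (SE 0.111, adjusted p = 0.95). The kinase genes EIF2AK1, EIF2AK2, EIF2AK3 and EIF2AK4, which encode HRI, PKR, PERK and GCN2, differed by -0.19, -0.28, -0.63 and 0.06, and EIF2AK3 had the smallest adjusted p of them at 0.49. Of the 20 genes tested in the eIF2 pathway list (subunits, exchange factors, kinases and phosphatase subunits) 0 were called, with a median difference of -0.02. With 0.868% of all genes tested called, 0 of 20 says little about the pathway. EGR1, an immediate-early gene whose mRNA the series title mentions, differed by -0.59 (SE 0.252, adjusted p = 0.64).

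Over all arms, 152 of the 17508 genes were called (0.868%). Of these 102 were higher in S51A (0.583%) and 50 lower (0.286%), with 91 higher and 38 lower by at least 2-fold. The median difference over all genes tested was -0.016, close to 0. All 152 differed in the same direction in the means of the 3 arms. This is largely built in, since the calls rest on all 3 arms, and the share over all genes is not given. In 142 of the 152 the 5 S51A arrays lay wholly above (97) or wholly below (45) the 5 PAR arrays. Over all genes tested, 398 had such groups (2.27%), 200 above (1.14%) and 198 below (1.13%). With S51A lomustine B left out the counts were 217 higher and 72 lower, and 151 of the 152 were still called, ARID5B being the exception. By biotype in RefSeq, 14520 of the 17508 genes tested were protein-coding, as were 84 of the 102 higher genes and 48 of the 50 lower. Of the 14479 probe sets with no gene symbol that passed the same filter, 51 were called (0.352%).

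**Figure D2:**
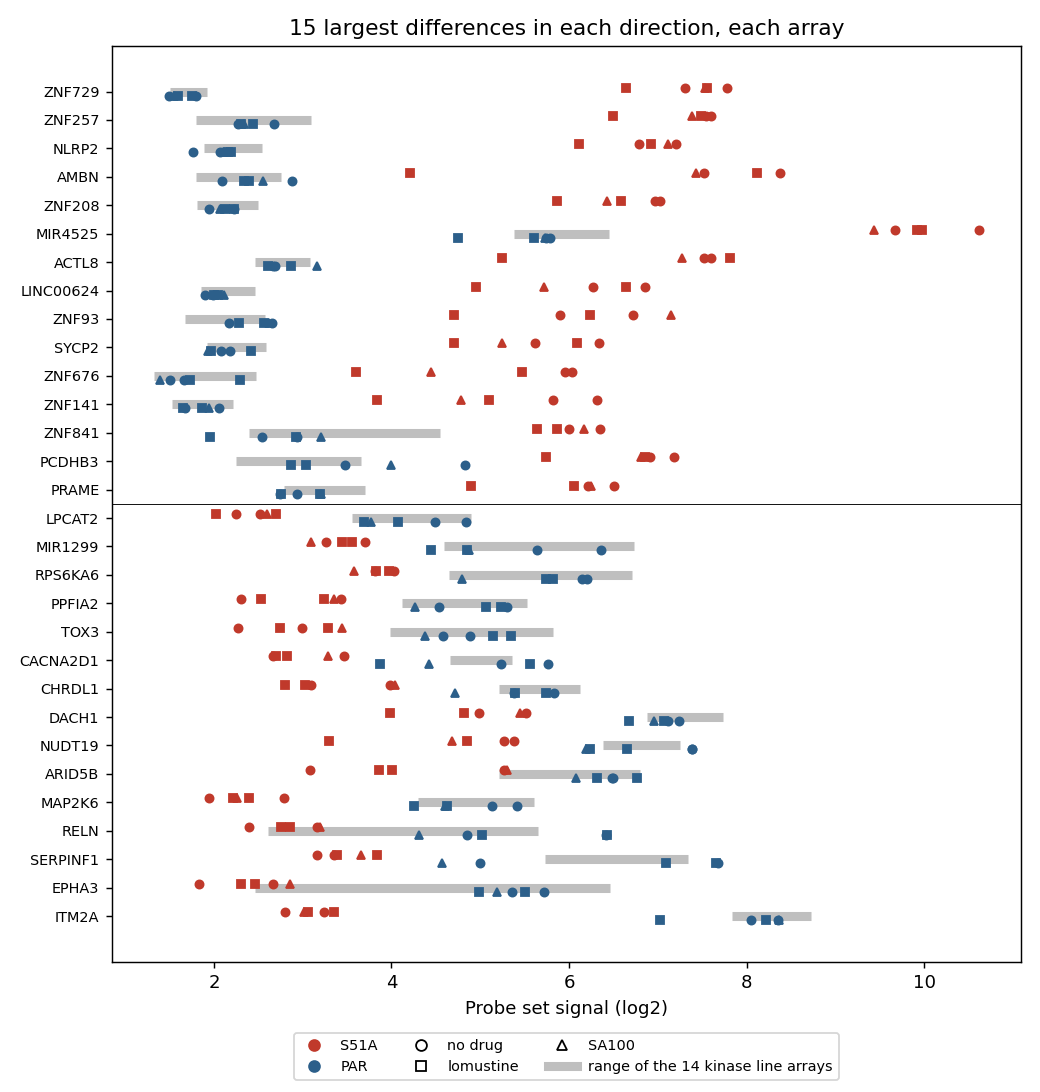
Log2 probe set signal (horizontal axis) of the 15 genes with the largest difference in each direction (rows), on each S51A array (red, upper) and each PAR array (blue, lower), with the range of the 14 arrays of the kinase lines in grey. S51A and PAR arrays do not overlap for any of the 30 genes, which the rule for naming them required. Signals of different rows are not comparable.

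Among the higher genes, several are best known from germ cells or early embryos. NLRP2 belongs to the NOD-like receptor family and in mice is needed in the oocyte for early development. It was 6.79, 7.21, 6.92, 6.11 and 7.11 in S51A, against 2.07, 1.77, 2.16, 2.19 and 2.10 in PAR. Every PAR array was below the floor, and the difference of 4.77 (SE 0.202, adjusted p = 4.2e-06) made S51A at least 21.3-fold higher. PRAME encodes a cancer-testis antigen that acts as a substrate receptor of a ubiquitin ligase. Its signal was 6.51, 6.21, 6.06, 4.90 and 6.25 in S51A and 2.75, 2.94, 2.76, 3.19 and 3.21 in PAR (difference 3.01, SE 0.254, adjusted p = 0.00039, 8.08-fold). ACTL8, an actin-like gene of the testis, was 7.52, 7.60, 7.81, 5.25 and 7.27 in S51A and 2.67, 2.69, 2.87, 2.61 and 3.16 in PAR. That is a difference of 4.29 (SE 0.414, adjusted p = 0.00096), or 4.76 without S51A lomustine B, whose 5.25 is the lowest S51A value.

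SYCP2 encodes a lateral element protein of the synaptonemal complex, which pairs chromosomes in meiosis. It was 5.62, 6.34, 6.09, 4.70 and 5.25 in S51A and 2.08, 2.18, 1.97, 2.42 and 1.93 in PAR (difference 3.48, SE 0.271, adjusted p = 0.00026, at least 9.09-fold). Other meiosis genes were looked up after their values had been seen. Of 26 such genes 21 were on the array, and only 9 passed the filter and were tested. A gene below the floor in PAR could pass through its S51A arrays alone. The share called among the 9 may thus be raised by the filter. Of the 9, 5 were called higher and 0 lower, against 0.868% called over all genes tested, with a median difference of 1.39. Besides SYCP2 they were CTCFL (2.34), a germ cell paralog of the insulator protein CTCF, C14orf39 (2.19) and SYCE2 (0.77), both of the central element of that complex, and STAG3 (1.32), the meiotic cohesin subunit. C14orf39 and STAG3 lost the call in 9 of 10 fits with 1 array left out (adjusted p up to 0.14 for each) and SYCE2 in 7 (up to 0.078), whereas CTCFL kept it in all 10. Leaving out either SA100 array gave the same fit, because the other then held no information on the lines. Each count of 10 fits, here and below, therefore holds that fit in duplicate. Of the 18 cancer-testis genes of a list drawn up separately, only PRAME was called; MAGEA1, MAGEA3 and MAGEA4 of the same list, also chosen afterwards, differed by 0.07, -0.01 and 0.05. In the imprinted gene list 1 of 23 was called, and that was NLRP2.

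AMBN encodes ameloblastin, a protein of the enamel matrix. It was 7.52, 8.38, 8.12, 4.21 and 7.43 in S51A and 2.88, 2.09, 2.40, 2.34 and 2.55 in PAR. The difference was 4.68 (SE 0.643, adjusted p = 0.0085), and 5.42 without S51A lomustine B. LINC00624, a long noncoding RNA, was 6.27, 6.85, 6.64, 4.95 and 5.72 in S51A and 1.99, 1.90, 2.05, 2.00 and 2.11 in PAR (difference 4.07, SE 0.309, adjusted p = 0.00022, at least 12.7-fold). Both transcripts were near or below the floor on every PAR array.

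Promoter windows of 4 of the most different genes are printed to show the DNA at which each transcript starts. They come from RefSeq (GRCh38.p14) and hold 250 bases before and 50 after the start, read 5′ to 3′ on the gene's strand, with CpG dinucleotides, the sites of DNA methylation, in capitals.
NLRP2 promoter, chr19:54966124-54966423 (plus strand): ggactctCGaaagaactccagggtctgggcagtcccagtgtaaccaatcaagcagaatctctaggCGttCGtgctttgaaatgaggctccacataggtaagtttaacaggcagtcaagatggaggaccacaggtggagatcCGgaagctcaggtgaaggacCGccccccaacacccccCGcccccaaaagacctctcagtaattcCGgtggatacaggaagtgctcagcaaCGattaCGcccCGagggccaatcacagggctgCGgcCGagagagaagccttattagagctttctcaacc
ZNF257 promoter, chr19:22052234-22052533 (plus strand): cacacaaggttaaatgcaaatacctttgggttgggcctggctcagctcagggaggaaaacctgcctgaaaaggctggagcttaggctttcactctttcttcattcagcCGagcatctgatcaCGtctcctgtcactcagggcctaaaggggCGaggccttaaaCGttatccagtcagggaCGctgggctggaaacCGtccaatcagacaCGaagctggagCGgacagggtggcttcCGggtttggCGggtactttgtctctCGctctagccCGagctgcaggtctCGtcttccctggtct
SYCP2 promoter, chr20:59933588-59933887 (minus strand): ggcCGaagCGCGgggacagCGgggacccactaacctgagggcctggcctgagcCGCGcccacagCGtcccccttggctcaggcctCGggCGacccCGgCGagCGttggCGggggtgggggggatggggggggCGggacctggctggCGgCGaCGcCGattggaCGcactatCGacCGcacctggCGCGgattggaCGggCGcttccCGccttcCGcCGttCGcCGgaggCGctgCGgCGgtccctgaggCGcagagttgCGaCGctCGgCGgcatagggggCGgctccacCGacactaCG
ITM2A promoter, chrX:79367285-79367584 (minus strand): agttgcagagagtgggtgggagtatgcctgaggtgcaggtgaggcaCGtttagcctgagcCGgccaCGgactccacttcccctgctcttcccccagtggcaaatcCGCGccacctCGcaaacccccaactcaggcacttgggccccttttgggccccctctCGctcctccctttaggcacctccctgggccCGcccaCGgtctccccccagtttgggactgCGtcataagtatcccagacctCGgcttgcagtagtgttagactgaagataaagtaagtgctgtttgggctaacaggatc
SYCP2 held 41 CpG, ZNF257 13, NLRP2 12 and ITM2A 11, against a median of 24 in the windows of the tested genes. The windows of ZNF208 and ZNF90, not printed, held 10 and 9. These genes were picked by hand, so the counts describe single windows only. Windows were at hand for 74 of the 102 higher genes, 39 of the 50 lower and 12846 of all tested, under 80% of each set, so a comparison of base composition between the sets is void and none is given.

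Zinc finger genes of the C2H2 type, many of which encode KRAB repressors that bind repeated DNA, were frequent among the higher genes. ZNF729 was 7.78, 7.31, 6.64, 7.55 and 7.53 in S51A, against 1.49, 1.80, 1.60, 1.75 and 1.55 in PAR (difference 5.73, SE 0.198, adjusted p = 1.9e-06). This was the largest difference of the comparison and at least 30.9-fold. ZNF257 was 7.54, 7.60, 7.49, 6.50 and 7.39 in S51A and 2.68, 2.27, 2.44, 2.30 and 2.34 in PAR (difference 4.90, SE 0.196), and ZNF208 differed by 4.45 (SE 0.194). In the list of zinc finger genes of band 19p12, written with these results known, 15 of 31 were called higher and 0 lower, and the median difference was 1.37. ZNF91 (0.11), ZNF254 (-0.05) and ZNF431 (-0.07) of the same list, chosen after their values were seen, did not pass. Outside it, ZNF141 on chromosome 4 differed by 3.34 (SE 0.322) and ZNF841 on chromosome 19 by 3.29 (SE 0.196). A set counted after the values were seen held all 408 genes tested whose symbol is ZNF and a number, which leaves out ZNF788P. Of these, 28 were called higher and 0 lower (6.86%), with a median of 0.06. Without S51A lomustine B 47 were higher and 0 lower, with a median of 0.15. These genes are near-copies of each other, and a probe set of 1 may also detect another.

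Clustered protocadherins, neuronal adhesion molecules read from an array of neighbouring genes on chromosome 5, included PCDHB3 among the 15 largest. It was 7.18, 6.91, 6.86, 5.74 and 6.81 in S51A and 4.83, 3.48, 2.87, 3.04 and 3.99 in PAR (difference 3.06, SE 0.284, adjusted p = 0.00072). Looked up afterwards, 4 of 15 genes of the beta cluster were called higher and 0 lower, with a median of 0.90. Over all genes tested 0.583% were called higher. PCDHB2 differed by 1.94, PCDHB18P by 1.63 and PCDHB15 by 1.24. Without S51A lomustine B 9 of the 15 were higher and 0 lower, against 217 higher of all 17508 genes. Probe sequences were not at hand, so whether a probe set of 1 cluster gene also detects another was not checked. The genes called may thus not be independent. The calls of PCDHB18P and PCDHB15 were lost in 8 and 7 of 10 fits with 1 array left out, with adjusted p up to 0.094 and 0.093.

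Small noncoding RNAs were called too. The SNAR genes encode small RNAs bound by nuclear factor 90 and lie in several near-identical copies, so that their probe sets are not independent. 5 of the 7 tested were called higher, from 1.01 for SNAR-E to 2.70 for SNAR-F (SE 0.185), which was 7.61, 6.64, 7.06, 6.66 and 7.18 in S51A and 4.45, 4.37, 4.31, 3.99 and 4.54 in PAR. TERC, the RNA template of telomerase, was 8.41, 7.64, 7.79, 7.20 and 8.39 in S51A and 6.71, 5.15, 4.81, 4.98 and 6.55 in PAR (difference 2.25, SE 0.299, adjusted p = 0.0068). On the arrays of the kinase lines TERC ran from 4.87 to 7.90, across the levels of both lines. SNAR genes and TERC were chosen after their values were seen.

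Of the 453 microRNA genes tested, 1 was called in each direction. Their mature sequences, from RefSeq (GRCh38.p14), are shown because they name the only called genes of this class; capitals mark the seed, bases 2 to 8, by which a microRNA pairs with its targets.
hsa-miR-4525: gGGGGGAUgugcaugcugguu
hsa-miR-1299: uUCUGGAAuucugugugaggga
The seeds differ. hsa-miR-4525 lies at chr17:82668281-82668301 and hsa-miR-1299 at chr9:40929010-40929031, both on the minus strand. The MIR4525 probe set was 9.67, 10.62, 9.92, 9.98 and 9.44 in S51A and 5.74, 5.79, 4.75, 5.60 and 5.73 in PAR (difference 4.40, SE 0.242, adjusted p = 2.2e-05, 21.2-fold). MIR1299 was 3.70, 3.26, 3.44, 3.56 and 3.09 in S51A and 5.64, 6.36, 4.45, 4.85 and 4.87 in PAR (difference -1.82, SE 0.257, adjusted p = 0.0094). These probe sets do not separate a mature microRNA from its precursor or from a longer transcript that contains it.

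Further higher genes, named after their values were seen, act in immunity, metabolism and signalling. CGAS, the sensor of DNA in the cytosol, was 4.65, 5.27, 5.57, 3.69 and 5.19 in S51A and 2.28, 2.49, 1.96, 2.67 and 2.16 in PAR (difference 2.56, SE 0.330, adjusted p = 0.0060, at least 5.49-fold). QPRT, an enzyme of NAD synthesis, differed by 2.33 (SE 0.326) and RHOB, a small GTPase, by 1.79 (SE 0.200). TGFB2, a ligand of the TGF-beta receptors, was the only called gene of the 34 tested in the growth factor and morphogen list, of which 2 were called without S51A lomustine B. It was 6.10, 4.90, 4.54, 4.54 and 5.86 in S51A and 3.45, 3.57, 2.76, 3.63 and 3.13 in PAR (difference 1.88, SE 0.287, adjusted p = 0.014), and its call was lost in 5 of 10 fits with 1 array left out (adjusted p up to 0.060). CD9, a tetraspanin, had the smallest called difference among the higher genes, 0.66 (SE 0.120).

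The largest decrease was that of ITM2A, which encodes a membrane protein with a BRICHOS domain. It was 3.24, 2.80, 3.06, 3.35 and 3.01 in S51A, against 8.35, 8.05, 7.02, 8.22 and 8.37 in PAR. The difference of -4.91 (SE 0.252, adjusted p = 1.6e-05) was 30.0-fold, and without each array in turn it stayed between -5.17 and -4.80. All S51A values were a little above the floor.

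Kinases were among the 15 largest decreases. EPHA3, a receptor tyrosine kinase for ephrins, was 2.67, 1.83, 2.46, 2.30 and 2.86 in S51A and 5.72, 5.36, 5.50, 4.99 and 5.19 in PAR (difference -2.93, SE 0.212, adjusted p = 0.00016). MAP2K6, which activates p38 MAP kinases, was 1.94, 2.79, 2.39, 2.21 and 2.26 in S51A and 5.41, 5.13, 4.25, 4.63 and 4.60 in PAR (difference -2.48, SE 0.204, adjusted p = 0.00034, at least 5.23-fold lower). RPS6KA6, a ribosomal S6 kinase, was 3.82, 4.03, 3.97, 3.83 and 3.58 in S51A and 6.20, 6.15, 5.82, 5.74 and 4.79 in PAR (difference -1.89, SE 0.160, adjusted p = 0.00039). The lowest PAR values of RPS6KA6 and of several genes below were on the SA100 array.

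Secreted proteins were a second class. SERPINF1, which encodes pigment epithelium-derived factor, was 3.35, 3.16, 3.39, 3.84 and 3.66 in S51A and 5.00, 7.68, 7.09, 7.65 and 4.57 in PAR (difference -2.92, SE 0.532, adjusted p = 0.041). RELN, the extracellular matrix protein reelin, was 3.16, 2.39, 2.86, 2.76 and 3.20 in S51A and 4.85, 6.42, 5.02, 6.43 and 4.31 in PAR (difference -2.53, SE 0.408, adjusted p = 0.020). CHRDL1, an antagonist of bone morphogenetic proteins, differed by -2.02 (SE 0.296, adjusted p = 0.012). PAR arrays of SERPINF1 and RELN spread widely, and the calls were lost in 6 and 4 of the 10 fits with 1 array left out, with adjusted p up to 0.15 and 0.087. CHRDL1 lost its call in 2, without PAR no drug B or S51A no drug B (adjusted p up to 0.057).

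Transcription factors among the lower genes included DACH1, a repressor in organ development, at 5.52, 4.99, 4.82, 3.98 and 5.45 in S51A and 7.24, 7.12, 6.67, 7.07 and 6.96 in PAR (difference -2.06, SE 0.217, adjusted p = 0.0015). TOX3, of the HMG-box family, was 2.99, 2.27, 2.74, 3.29 and 3.44 in S51A and 4.58, 4.89, 5.35, 5.14 and 4.38 in PAR (difference -1.92, SE 0.233, adjusted p = 0.0040). ARID5B, a DNA-binding regulator, differed by -2.12 (SE 0.401, adjusted p = 0.047), but its call was lost in 7 of 10 fits with 1 array left out. The remaining lower genes of the 15 largest act in membranes and metabolism. NUDT19, a coenzyme A hydrolase in mouse peroxisomes, was 5.38, 5.27, 4.85, 3.30 and 4.68 in S51A and 7.39, 7.39, 6.24, 6.65 and 6.19 in PAR (difference -2.07, SE 0.269, adjusted p = 0.0062). It was the only lower gene on chromosome 19. CACNA2D1, an auxiliary subunit of calcium channels, differed by -1.98 (adjusted p = 0.027), PPFIA2, a synaptic scaffold of the liprin family, by -1.91 (adjusted p = 0.014), and LPCAT2, an acyltransferase of phosphatidylcholine and platelet-activating factor, by -1.76 (adjusted p = 0.0043). The calls of CACNA2D1 and PPFIA2 were lost in 5 and 2 of the 10 fits with 1 array left out, whereas DACH1, TOX3, NUDT19 and LPCAT2 kept theirs.

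Of the 34 gene lists, 25 had 0 called genes. In all, 23 of their 643 tested genes were called, 15 of them in the 19p12 list. Over all genes tested 0.868% were called. A count of 0 is therefore the common outcome for lists this short and says little about their genes. That holds for the marker lists above as well. The lists with 0 called covered amino acid synthesis and transport (22 tested, median -0.16), tRNA synthetases (19, -0.02), the unfolded protein response (20), heat shock (14, -0.02), NRF2 targets (17, -0.07), p53 targets (23, -0.06), DNA repair (18, -0.10), apoptosis (24, -0.01), stress granule components (23, -0.04), cholesterol synthesis (14, -0.30), S phase (20, -0.03), G2 and mitosis (19, -0.10) and ribosomal proteins (18, 0.03). Other lists with 0 called were immediate-early genes (34, -0.14), the interferon response (14), antigen presentation (17, -0.05), glycolysis and hypoxia (23, -0.03), matrix genes (25, 0.11) and HOX genes (21, 0.13). Markers of neural cells (14, -0.05) and of fibroblasts (10, -0.12) had none either. S51A lomustine B moved several of these medians: without it they were -0.04 for amino acid synthesis and transport, -0.14 for cholesterol synthesis, 0.09 for tRNA synthetases, 0.10 for heat shock, 0.01 for NRF2 targets, 0.02 for p53 targets, 0.01 for DNA repair and 0.08 for antigen presentation. Immediate-early genes were then at -0.03, S phase at 0.08, stress granule components at 0.03 and the eIF2 pathway at 0.08. Without that array 1 p53 target and 1 antigen presentation gene were called lower and 1 HOX gene higher. With 5 arrays a line, a gene that did not pass is not shown to be equal: CCN2, a matricellular growth regulator, differed by 1.41 (SE 0.274, adjusted p = 0.054), and SLC7A3, an arginine transporter, by 0.94 (SE 0.201, adjusted p = 0.084).

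Several lists held a single called gene, lower in S51A. MT1M, a metal-binding metallothionein, was 4.13, 3.96, 3.15, 2.79 and 5.52 in S51A and 5.78, 5.26, 3.75, 4.69 and 7.97 in PAR (difference -1.58, SE 0.239, adjusted p = 0.014). It was 1 of 6 tested in its list, whose median was -0.41. MT1M lost its call in 2 of 10 fits with 1 array left out (adjusted p up to 0.062) and in the fit without the arm as a block (adjusted p = 0.74). The lines overlapped for MT1M, which was highest on the SA100 array of each. CCL2, a chemokine that attracts monocytes, differed by -1.15 (SE 0.129, adjusted p = 0.0023) and was 1 of 15 NF-kB targets; every S51A array of CCL2 was below the floor. H1-3, a linker histone, differed by -1.03 (SE 0.115, adjusted p = 0.0023) and was 1 of 11 histone genes, with a list median of -0.49, or -0.26 without S51A lomustine B. PCDH17, a protocadherin, differed by -0.98 (SE 0.138, adjusted p = 0.0097) and was 1 of 28 adhesion genes, of which 2 were higher and 2 lower without S51A lomustine B. Of 28 genes of DNA methylation and heterochromatin, looked up after values were seen, only ATF7IP was called, at -0.83 (SE 0.143, adjusted p = 0.030). It encodes a partner of the histone methyltransferase SETDB1, and its call was lost in 8 of 10 fits with 1 array left out. SETDB1 itself differed by -0.23, TRIM28 by 0.10 and DNMT1 by -0.10, each with an adjusted p of 1.

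In the integrated stress response list 1 of 30 genes was called, and it was lower in S51A. The list's median was -0.23, against -0.016 over all genes. The called gene, SESN2, encodes a stress-induced inhibitor of mTOR complex 1. It was 4.39, 4.05, 5.46, 4.62 and 5.79 in S51A and 4.89, 5.05, 6.96, 7.11 and 7.72 in PAR (difference -1.49, SE 0.254, adjusted p = 0.029). The lines overlapped when arms were pooled but not within an arm: the differences were -0.75 without drug, -2.00 with lomustine and -1.93 with SA100. The call was lost in 7 of 10 fits with 1 array left out (adjusted p up to 0.12). DDIT4, another mTOR complex 1 inhibitor, was 3.43, 3.20, 3.39, 3.90 and 4.46 in S51A and 4.05, 3.61, 6.79, 6.93 and 6.68 in PAR. Its difference over all arms did not pass (-1.94, SE 0.417, adjusted p = 0.088). CHAC1, which degrades glutathione, was picked by hand from the list. Its signal was 5.27, 4.81, 5.21, 5.30 and 6.03 in S51A and 5.08, 5.23, 6.89, 8.17 and 8.31 in PAR (difference -1.41, adjusted p = 0.24). For both, the lines were far apart on the treated arrays and close without drug.

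**Figure D3:**
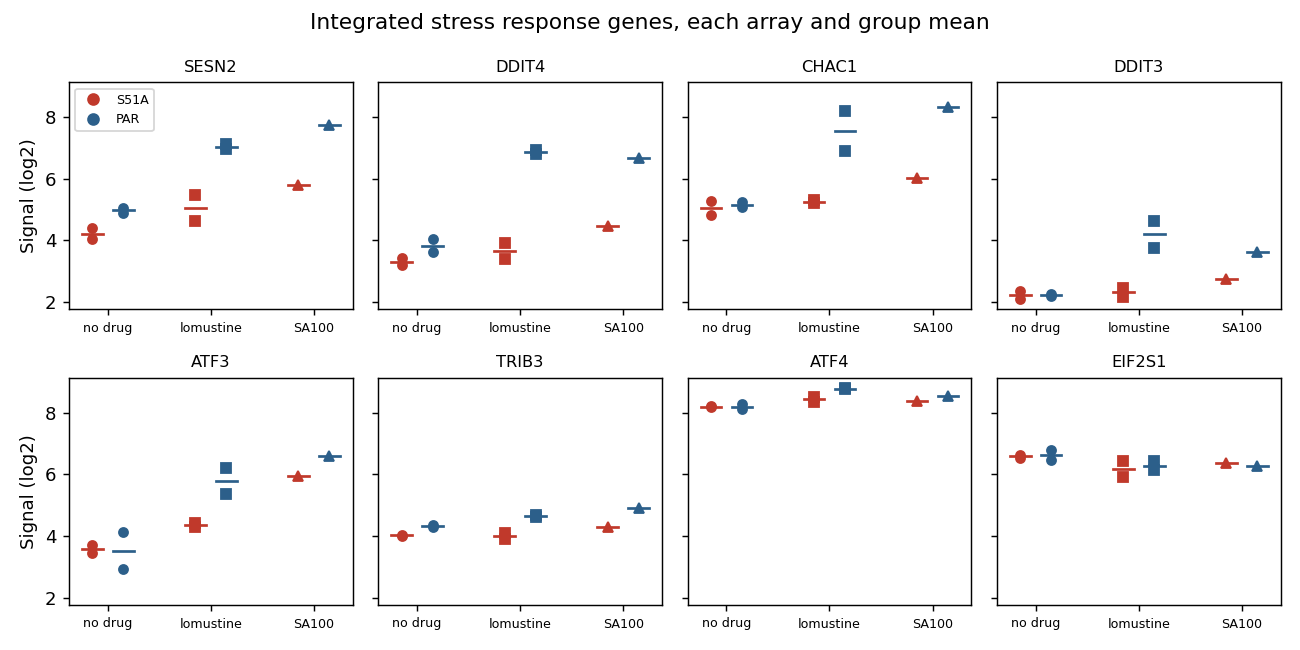
Log2 signal (vertical axis) of 8 genes of the integrated stress response or of eIF2 on each array of S51A (red, left in each pair) and PAR (blue, right) without drug, with lomustine and with SA100; horizontal strokes are group means. The means of SESN2, DDIT4 and CHAC1 lie farther apart on the treated arrays than without drug, while ATF4 and EIF2S1 lie close together in every arm; of the 8 only SESN2 was called over all arms.

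How the difference between the lines varied with treatment was tested within each arm. Without drug, 23 genes were called higher (0.131%) and 7 lower (0.04%), 30 genes in all (0.171%). With lomustine, 11 were higher (0.0628%) and 4 lower (0.0228%), 15 genes in all (0.0857%). With SA100, where each line has 1 array and is assumed to vary like the duplicated groups, 4 were higher and 0 lower (0.0228%). The 4 genes called with SA100 were ZNF729 (5.98), ZNF257 (5.06), NLRP2 (5.01) and ZNF208 (4.36). ZNF729 differed by 5.90 without drug and 5.43 with lomustine, and NLRP2 by 5.08 and 4.34. ITM2A differed by -5.18 without drug, -4.41 with lomustine and -5.35 with SA100, with adjusted p of 0.0067, 0.015 and 0.062. DDIT4 was called in the lomustine arm (-3.22, adjusted p = 0.0092) but differed by only -0.51 without drug. Single arrays changed the balance of calls: with lomustine it was 37 higher and 3 lower without S51A lomustine B, and 18 higher and 25 lower without S51A lomustine A. Arms differ in their number of arrays, so their counts do not measure the size of the differences.

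Interaction terms asked whether a treatment changed the difference between the lines. By limma, 0 genes passed for lomustine (114 at an unadjusted p below 0.05) and 0 for SA100 (113). Both counts are well below a share of 0.05 of the 17508 genes tested, which evenly spread p-values would give. The p-values were thus not evenly spread, and the counts cannot tell whether further differences exist. Of the genes named here DDIT4 had the smallest p of the lomustine interaction: its difference between the lines was lower by 2.70 with lomustine than without drug (interaction -2.70, SE 0.370, unadjusted p = 0.00012, adjusted p = 1). For AMBN the interaction was -1.66 (SE 1.52) and for ITM2A 0.77 (SE 0.555), both with an adjusted p of 1. With 4 residual degrees of freedom these terms have wide errors, and an unpassed test does not show equal differences.

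**Figure D4:**
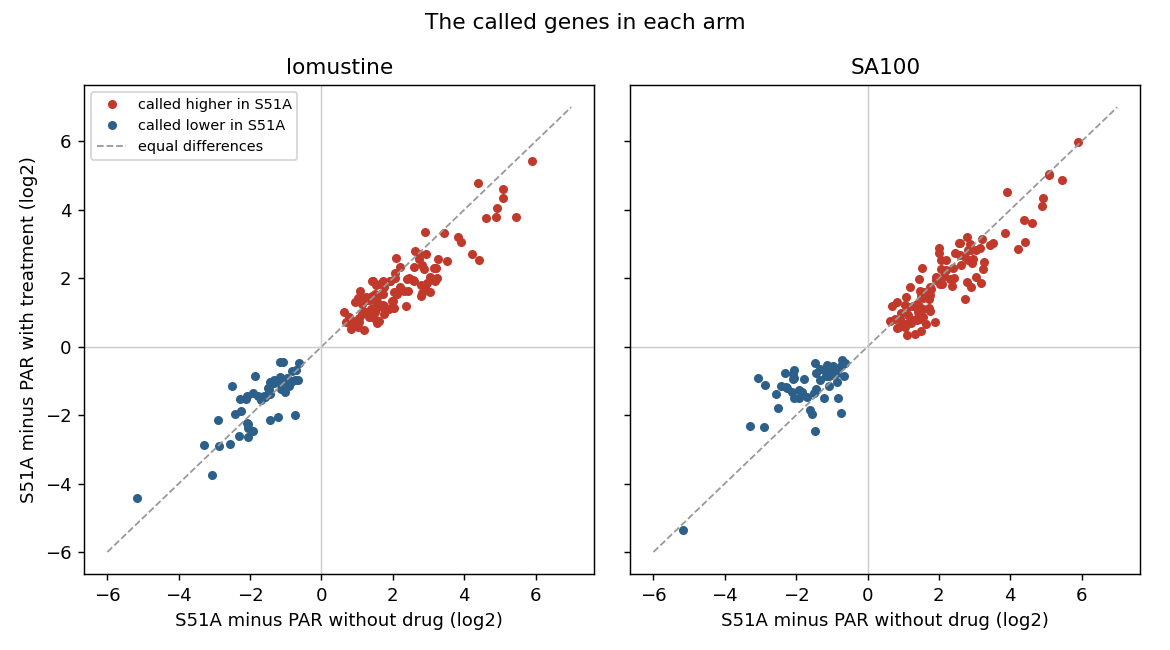
Difference S51A minus PAR (log2) of the 152 called genes with lomustine (left, vertical axis) and with SA100 (right, vertical axis) against the difference without drug (horizontal axis); red genes were called higher in S51A and blue genes lower, and the dashed line marks equal differences. All points lie in the quadrants of equal sign; the arms share no arrays, but the calls rest on all of them.

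The 4 kinase lines served to ask which of S51A and PAR lay away from the other lines. These comparisons share the S51A or the PAR arrays with the one above, so only each gene's own values are set side by side. Against the mean of the kinase lines, 548 genes were called higher in S51A (3.13%) and 510 lower (2.91%), 1058 in all (6.04%). In PAR 4 were higher (0.0228%) and 1 lower (0.00571%), 5 in all (0.0286%). The balance in S51A was not stable: 894 were higher and 379 lower without S51A lomustine B, and 655 higher and 842 lower after quantile normalization. In PAR the same settings gave 12 higher and 14 lower, and 10 higher and 20 lower. More arrays entered these fits than the comparison of S51A with PAR. NLRP2 differed by 4.71 in S51A and by -0.06 in PAR from the kinase lines, whose arrays ran from 1.89 to 2.54. ITM2A differed by -5.24 in S51A and by -0.33 in PAR, and the arrays of the kinase lines ran from 7.83 to 8.72. ZNF729 differed by 5.65 in S51A and -0.07 in PAR, MIR4525 by 3.98 and -0.43, and DACH1 by -2.15 and -0.10.

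EPHA3 was an exception. It was lower in S51A (-1.40, adjusted p = 0.00035) and higher in PAR (1.53, adjusted p = 0.010) than the mean of the kinase lines, whose arrays spread from 2.46 to 6.46. RELN likewise ran from 2.61 to 5.65 in the kinase lines, with -1.65 in S51A and 0.88 in PAR. For these genes the kinase lines themselves lay on both sides. The other genes called in PAR against the kinase lines were BABAM1 (0.63), CCDC50 (0.77), FASTKD2 (1.59) and PXDN (-0.79). None of these 4 was called between S51A and PAR, where FASTKD2, a mitochondrial RNA-binding protein gene, differed by 1.44 (adjusted p = 0.097).

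By position, chromosome 19 held 41 of the called genes by RefSeq's assignment, 40 higher and 1 lower of 1304 tested (3.14%). On the other chromosomes 62 were higher and 49 lower of 16176 (0.686%). On chromosome 19, 27 of the 204 genes named ZNF and a number were called higher. Of the 1100 other genes, 13 were higher, ZNF788P among them, and 1 lower. The X chromosome had 6 higher and 4 lower of 629 (1.59%), ITM2A, CHRDL1 and RPS6KA6 being among the lower. Chromosome 21 had 0 of 197 called. The median difference over all tested genes of a chromosome ran from -0.041 on chromosome 15 to 0.077 on the X chromosome. Neighbouring called genes formed 4 runs of at least 3, together 16 genes, all higher, all zinc finger genes and all on chromosome 19. As said above, a probe set of 1 such gene may also detect another, so the members of a run may not be independent. The longest held ZNF43, ZNF208, ZNF257, ZNF676, ZNF729, ZNF98 and ZNF492, with differences of 2.84, 4.45, 4.90, 3.38, 5.73, 1.49 and 1.37. The other 3 runs were ZNF878, ZNF844 and ZNF788P (2.32, 2.42 and 1.88), ZNF90, ZNF486 and ZNF737 (2.65, 2.03 and 1.46), and ZNF85, ZNF430 and ZNF714 (2.34, 2.45 and 1.48). All 7 genes of the longest run kept their call without each array in turn. In the shorter runs ZNF737 lost it in 9 of 10 fits, ZNF844 and ZNF714 in 8, ZNF486 in 7 and ZNF430 in 4 (adjusted p up to 0.15), so each of these runs held fewer than 3 called genes in most fits.

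**Figure D5:**
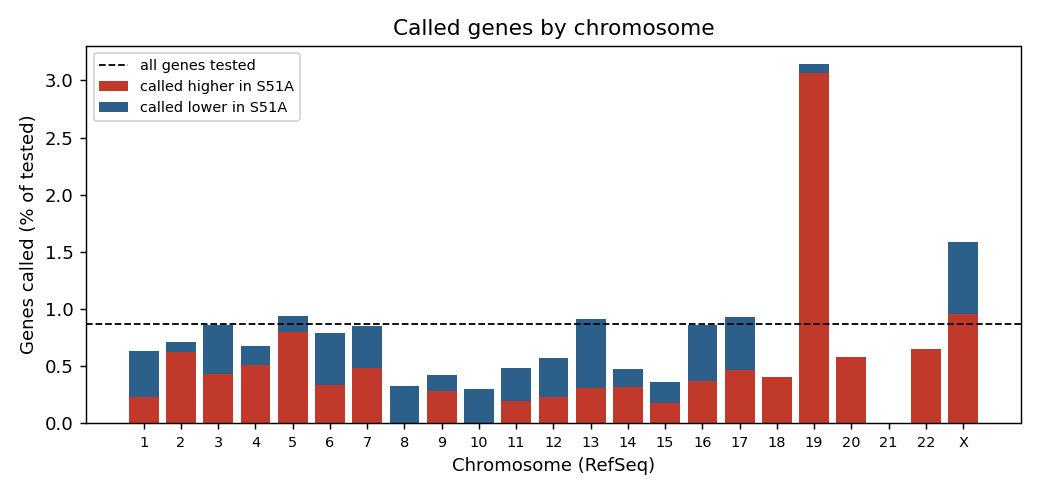
Share of tested genes called higher (red) or lower (blue) in S51A on each chromosome (horizontal axis; vertical axis in % of genes tested), with the share over all genes tested, 0.868%, as a dashed line. Chromosome 19 reaches 3.14% and the X chromosome 1.59%.

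Single arrays mattered unequally. Of the 15 largest higher genes, 15 kept their call without each of the 10 arrays in turn; of the 15 largest lower genes, 9 did. The total of called genes was 101 without PAR no drug A, 82 without PAR no drug B, 93 without S51A no drug A, 91 without S51A no drug B and 289 without S51A lomustine B. With lomustine arrays alone, 2 in each line, limma called 0 genes, and with untreated arrays alone it called 95. The lomustine arrays alone had 340 genes at an unadjusted p below 0.05, less than a share of 0.05 of those tested.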

How the data were processed

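Total RNA of HAP1 cells was labelled and read on 24 Affymetrix arrays. The deposited values are log2 signals of 53617 probe sets, made by the authors with RMA and the R package affy, per the submitters' processing notes; versions and genome build are not given in the sources used here. RMA is meant to equalise the distributions of arrays, so a shift of all transcripts may not be seen. The deposited values still differed in range, with a 90th percentile of 5.29 on S51A lomustine B and 6.06 on PAR no drug B. Differences of scale between arrays therefore remain in the comparisons. Of the probe sets, 23871 had 1 gene symbol, 1842 several and 27904 none in the platform annotation. The probe set with the highest mean stood for each of 22357 genes, and 17508 that reached the median of all values, 2.42, on at least 2 of the 24 arrays were tested; 4849 were not.

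Lines were compared with limma 3.58.1 in R 4.3.3, with arm as a block over 10 arrays (6 residual degrees of freedom), with group means for arms and interactions (4), and over 24 arrays for the kinase lines (16). Tests are two-sided with Benjamini-Hochberg adjustment at 0.05, and were tested on simulated data. The number of arrays limits the precision. Letters A and B were not taken as pairs: deviations of same-lettered arrays correlated at 0.364 without drug and -0.698 with lomustine.

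The members and gene lists were chosen with earlier results of these data known. Genes named are those of the eIF2 pathway and EGR1, the 15 largest called differences in each direction with the same sign in 3 arms and no overlap between lines, up to 5 per direction in each arm, up to 4 called members or the 2 of smallest p per list, and members of runs of at least 3 neighbouring called genes; others are said to be chosen after their values were seen. Alternatives covered scaling, filter, array weights, blocks, arrays left out and the choice of lines.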

Additional observations from a re-analysis of the deposited data

Results flagged for a closer look

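Of 64 sets of 5 arrays of 1 line that were examined, 10 held an array far from the other 4 (gap over range above 0.71), and chance gives about 1 in 20. In 7 of the 10 the array was S51A lomustine B. Its share of probe sets more than 1 log2 unit from their median was 8.37%, against 1.26% to 2.65% on the other S51A arrays, and its 90th percentile was 5.29, against 5.88 to 6.04. On it AMBN was 4.21 (the other S51A arrays 7.43 to 8.38), ACTL8 5.25 (7.27 to 7.81), PCDHB3 5.74 (6.81 to 7.18), PRAME 4.90 (6.06 to 6.51) and ZNF257 6.50 (7.39 to 7.60). All 5 values were still above those of every PAR array.

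In PAR, lomustine A gave ITM2A at 7.02, against 8.05 to 8.37 on the other PAR arrays, and MIR4525 at 4.75, against 5.60 to 5.79. NLRP2 was 1.77 on PAR no drug B, against 2.07 to 2.19, all below the floor of 2.42.

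Probe sets with no gene symbol were not described singly or in gene lists. Of the 14479 of them that passed the same filter, limma called 38 higher and 13 lower in S51A (0.352%).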

How the results depend on the processing

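The alternatives were followed singly for 71 named called genes, which do not include TERC, CGAS, QPRT, RHOB and CD9. None of the 71 changed sign under the alternatives run. Genes near 0 that were not called did: EIF2S1 (-0.04) was 0.01 with quantile normalization or array weights and 0.05 without S51A lomustine B, and EIF2AK4 (0.06) was -0.07 without S51A lomustine A. The median over all genes (-0.016) was 0.006 without S51A lomustine B. The 152 genes called over all arms became 101 with arrays centred on their medians, 510 with array weights, 380 in a fit of all 24 arrays, 95 with untreated arrays only and 0 with lomustine arrays only (limma; 340 at an unadjusted p below 0.05). With the letters as a replicate block 83 genes were called, 81 of them among the 152. Crossing the letters in the lomustine arm, chosen after seeing the data, gave 462. Leaving out both S51A lomustine B and PAR lomustine A, also chosen afterwards, gave 426. Other settings, among them no filter, quantile normalization and no arm block, gave 104 to 219. Leaving out 1 array gave 82 (without PAR no drug B) to 289 (without S51A lomustine B). Under the same settings called list members (23) were 60 with weights, 45 with 24 arrays, 46 without both arrays, 50 crossed, 0 with lomustine arrays only and 17 to 35 without 1 array. Called genes on chromosome 19 (41) were 84, 66, 80, 70, 0 and 30 to 65. Of 71 named called genes, 16 lost the call under centring, 24 under the block and 27 with untreated arrays only.

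Within arms, the 30 genes without drug became 14 with no filter, 55 in a fit of 18 group means and 0 to 69 without 1 array. The 15 with lomustine became 31 with quantile normalization, 29 with 18 means and 5 to 43; the 43 were 18 higher and 25 lower, against 11 and 4. The 4 with SA100 became 0 with no filter (limma; 374 at an unadjusted p below 0.05), 10 with 18 means and 0 to 19; without either PAR lomustine array 0 were higher and 1 lower. Both interactions stayed at 0 by limma throughout. When 1 array was left out, 48 to 1957 genes for lomustine and 46 to 322 for SA100 had an unadjusted p below 0.05. Of these counts only the 1957, without S51A lomustine A, exceeded a share of 0.05 of the genes tested. S51A against the kinase lines gave 807 to 1497 genes, 894 higher and 379 lower without S51A lomustine B and 655 higher and 842 lower with quantile normalization. The 5 genes of PAR against the kinase lines (4 higher, 1 lower) became 30 (10 and 20) with quantile normalization, 9 without the PKR line, 1 without the PERK line and 26 (12 and 14) without S51A lomustine B. The causes of these changes were not tested. Signals near the floor limit the folds to lower bounds in 35 higher and 3 lower genes.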
